A study of Mus musculus with 18 samples.

Results

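The genes of the NF-kB transcription factor subunits and of their IkB-type inhibitors were read in mouse heart. Members were all probe sets that the platform annotation assigns to a single symbol from a list of 10 genes. Nfkb1, one of the 10, was not analysed here. The other 9 genes, Rela, Relb, Rel, Nfkb2, Nfkbia, Nfkbib, Nfkbie, Nfkbiz and Bcl3, had 18 probe sets among the 45037 tested, and are 9 of the 18193 genes with a probe set. A probe set is a group of short probes that together report a transcript. A gene with several is represented by its brightest one, judged by the mean of the 18 arrays, and the others are given beside it.

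Hearts came from control mice and from mutant mice deficient in Kir6.1, which forms the pore of an ATP-sensitive potassium channel and is the product of Kcnj8. Mice of each genotype received PBS and were examined after 3 h, or received 0.5 µg of lipopolysaccharide (LPS) in PBS and were examined after 30 min or 3 h, with 3 arrays in each of the 6 groups. LPS is the bacterial endotoxin sensed by the Toll-like receptor Tlr4. The sources used here do not give the strain, the age, the mutant allele or the cells in which the gene is inactive. The design speaks of 3 mice per genotype but does not tie each array to an animal of its own, so the p-values describe variation among these arrays, some of which may be technical.

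Values are the deposited log2 signals. A change is a difference of log2 means, so that 1 stands for a doubling. Kcnj8 lay between 4.35 and 5.36 on the mutant arrays and between 8.35 and 8.90 on the control arrays, where the median of all probe sets was 4.85. The 7 measured cardiomyocyte markers averaged 12.9 to 13.4 on every array. Mutant LPS 3 h replicates 1 and 3 were hybridized on a day of their own, called the second day here, and differed in a measure of RNA quality. On the control probe sets for Gapdh and Actb their 3' signal exceeded the 5' signal by 1.37 and 1.09, against 0.13 to 0.44 on the other 16 arrays. All LPS 30 min arrays were hybridized on the third day, and all remaining arrays on the first. Array lot also differed between PBS and LPS 3 h arrays, so lot and LPS cannot be told apart.

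NF-kB factors are dimers of Rel-homology proteins that wait in the cytoplasm, bound by IkB proteins. Signals from Toll-like receptors and cytokine receptors activate kinases that mark the bound IkB for destruction, and the freed dimers enter the nucleus and switch on genes of inflammation, survival and their own feedback inhibition. In the heart, endotoxin is known to activate this pathway in muscle cells, endothelium and resident immune cells. A slower, noncanonical branch works through Relb and the processed product of Nfkb2.

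The sequences before annotated start sites of the member genes show where a letter match to the kappa-B consensus, the DNA motif that NF-kB dimers bind, lies near each gene. They were taken from RefSeq windows on GRCm38.p6. Of the 10 listed genes 7 had a window, with 9 windows in all, and Relb, Nfkbiz and Nfkb1 had none. The motif, of 10 letters, was searched on both strands of the 250 bases before the start site that each window is built on. Of all 32851 windows 7.251% held at least 1 match, and 1.029% held 2 or more. Among the members, 6 of the 9 windows and 4 of the 7 genes held a match, namely Rel, Nfkb2, Nfkbia and Nfkbie. The windows of Nfkbia, Nfkb2 and Rel are shown because they hold a match, and that of Bcl3 because it had the largest change of the family in mutants while none of these letters matched. Each runs 5′ to 3′ along its gene and ends at the base before its window's start site, with the matches in capitals. In the RefSeq gene table of the same build that site is the outermost base of the gene for Nfkbia and Rel, and lies inside the gene for Nfkb2 and Bcl3.
Nfkbia, chr12:55492648-55492897, minus strand: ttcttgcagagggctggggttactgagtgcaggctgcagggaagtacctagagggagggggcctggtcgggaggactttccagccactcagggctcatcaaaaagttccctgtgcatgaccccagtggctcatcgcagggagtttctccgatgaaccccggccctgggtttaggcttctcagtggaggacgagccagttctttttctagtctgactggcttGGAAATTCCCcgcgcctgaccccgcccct
Nfkb2, chr19:46304487-46304736, plus strand: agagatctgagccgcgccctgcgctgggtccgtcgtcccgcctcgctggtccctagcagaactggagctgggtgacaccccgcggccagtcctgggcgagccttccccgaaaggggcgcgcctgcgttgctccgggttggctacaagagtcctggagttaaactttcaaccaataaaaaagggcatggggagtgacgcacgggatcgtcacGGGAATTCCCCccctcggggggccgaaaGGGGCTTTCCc
Rel, chr11:23770970-23771219, minus strand: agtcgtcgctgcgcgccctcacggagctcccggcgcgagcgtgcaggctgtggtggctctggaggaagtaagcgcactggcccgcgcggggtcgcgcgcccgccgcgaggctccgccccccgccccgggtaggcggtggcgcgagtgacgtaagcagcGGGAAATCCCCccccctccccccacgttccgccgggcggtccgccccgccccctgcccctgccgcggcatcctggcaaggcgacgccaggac
Bcl3, chr7:19822756-19823005, minus strand: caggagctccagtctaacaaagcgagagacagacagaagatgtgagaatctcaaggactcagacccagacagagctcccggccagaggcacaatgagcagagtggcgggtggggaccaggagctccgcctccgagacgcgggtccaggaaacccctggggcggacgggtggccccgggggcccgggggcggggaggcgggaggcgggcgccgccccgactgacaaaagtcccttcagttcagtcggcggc
In Nfkbia the match began 29 bases before the start. The Nfkb2 window held matches that began 39, 38 and 11 bases before the start, and the first pair overlap, as do those of Rel at 92 and 91 bases. Both remaining Nfkb2 windows, which belong to later starts, held 1 match each, beginning at 236 and 225 bases, and the Nfkbie window held 1 at 106 bases. These are shown with 10 bases on either side.
Nfkb2, chr19:46305449-46305478, plus strand: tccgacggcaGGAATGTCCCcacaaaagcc
Nfkb2, chr19:46305695-46305724, plus strand: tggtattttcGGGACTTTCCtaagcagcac
Nfkbie, chr17:45555584-45555613, plus strand: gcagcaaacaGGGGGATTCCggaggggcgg
The windows of Rela and Nfkbib held no match. A match describes letters only, and its use by a factor was not measured.

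In control hearts 3 h after LPS, the subunit genes Relb and Nfkb2 and the nuclear IkB gene Bcl3 rose. In mutant hearts the same 3 genes rose, and so did Nfkbia and Nfkbiz. No member passed a direct test of whether the 3 h change differed by genotype. Rela, Rel, Nfkbib and Nfkbie did not pass in either genotype by their representing probe sets. At 30 min no member passed in either genotype. Hearts were measured whole, so a different number of cells of a type and a different amount of RNA per cell cannot be told apart. This holds for all of these changes.

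Counted over the 9 genes, 3 rose and 0 fell in controls 3 h after LPS, where 0.638% of all genes rose and 0.137% fell. In mutants 5 rose and 0 fell, where 9.90% of all genes rose and 16.1% fell. Of the 18 probe sets 4 rose in controls and 13 in mutants, against 0.362% and 7.99% of all probe sets. The median change of the 9 genes was 0.75 in controls and 1.05 in mutants, beside -0.01 and 0.07 over all genes. Arrays did not overlap, with LPS higher, for 6 of the 9 genes in controls and 7 in mutants, where 11.0% and 16.5% of all genes met that condition.

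**Figure D1:**
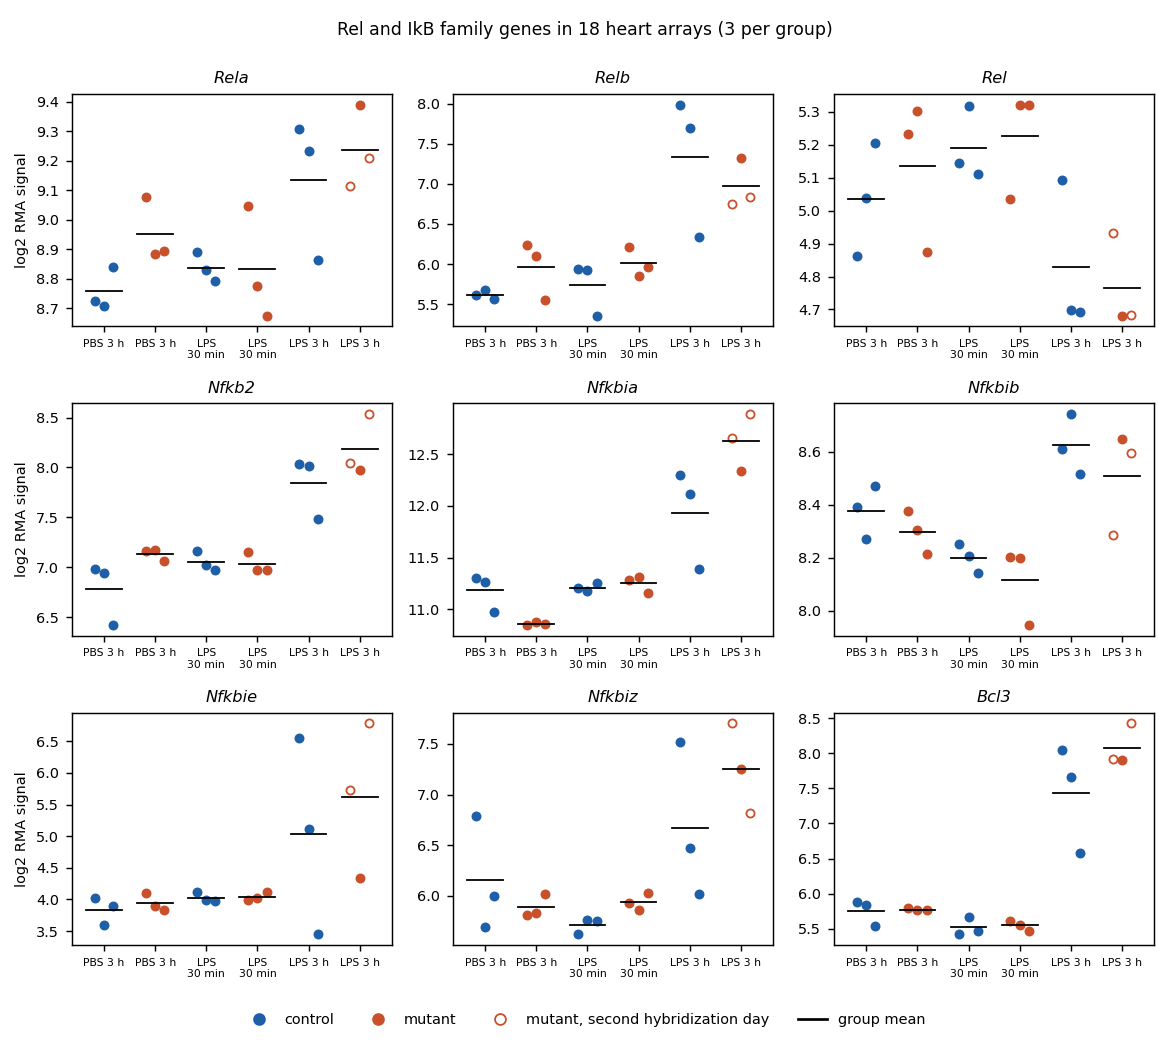
Log2 RMA signal of the 9 genes by group, 1 panel per gene, each with its own axis. Points are single arrays (blue, control; red, mutant; open, mutant arrays of the second hybridization day), and bars are means of 3 arrays. In both genotypes all LPS 3 h points of Relb, Nfkb2 and Bcl3 lie above all PBS points, while for Nfkbie control replicate 3 stays at 3.45, below the PBS points.

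Of the 4 subunit genes, Relb, which partners the Nfkb2 product in the noncanonical branch, had the largest change in control hearts. Its values were 5.61, 5.68 and 5.56 after PBS and 7.99, 7.69 and 6.33 at 3 h after LPS in controls. In mutants they were 6.24, 6.10 and 5.55 after PBS and 6.75, 7.33 and 6.84 after LPS. The groups did not overlap in either genotype, and control LPS replicate 3 was the lowest of the 6 LPS arrays. Relb rose by 1.72 in controls (SE 0.32, limma adjusted p = 0.0235), 3.30-fold, and by 1.01 in mutants (SE 0.32, limma adjusted p = 0.0350). The control call was lost without control LPS replicate 1 or 2 (changes of 1.40 and 1.54, limma adjusted p = 0.0916 and 0.0987) or without PBS replicate 1, 2 or 3 (1.72, 1.75 and 1.69, adjusted p = 0.0873, 0.0966 and 0.118), and without LPS replicate 3 the change was 2.22. The mutant call held in 7 of 17 fits. It was lost without LPS replicate 2 or 3 (0.83 and 1.08, adjusted p = 0.0797 and 0.0834) or PBS replicate 2 or 3 (1.08 and 0.80, adjusted p = 0.0714 and 0.140). It was also lost with each array centred on its median (0.94, adjusted p = 0.0539), with array weights (0.94, adjusted p = 0.185), with only the compared arrays, and, at a change of 1.36, without the second-day arrays, with day as a block or with first-day arrays alone (adjusted p = 0.0637, 0.0882 and 0.152).

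Nfkb2 encodes the precursor that is cut to the DNA-binding subunit of that branch. In controls its representing probe set measured 6.98, 6.94 and 6.42 after PBS and 8.04, 8.01 and 7.49 at 3 h after LPS. In mutants it measured 7.16, 7.18 and 7.07 after PBS and 8.04, 7.98 and 8.54 after LPS. Every LPS array was above every PBS array of its genotype. The increase was 1.07 in controls (SE 0.17, limma adjusted p = 0.0121) and 1.05 in mutants (SE 0.17, limma adjusted p = 0.00189). The other probe set, of the _x_at type whose probes can match further transcripts, differed by 0.09 in controls (limma adjusted p = 0.904) and rose by 0.75 in mutants (limma adjusted p = 0.00500). Without control LPS replicate 1 or 2, or PBS replicate 3, the control call was lost (0.97, 0.98 and 0.89, adjusted p = 0.0617, 0.0619 and 0.0775), and with both probe sets averaged the control difference was 0.58 (adjusted p = 0.0694).

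Rela, the subunit with the main activation domain of the canonical dimer, was at 8.73, 8.71 and 8.84 after PBS in controls and at 9.31, 9.23 and 8.86 at 3 h after LPS. In mutants it was at 9.08, 8.88 and 8.89 after PBS and at 9.12, 9.39 and 9.21 after LPS. All LPS arrays were above the PBS arrays of their genotype, though control LPS replicate 3 barely exceeded the top PBS array. The changes were 0.38 in controls (95% interval 0.11 to 0.64, limma adjusted p = 0.247) and 0.29 in mutants (0.02 to 0.55, limma adjusted p = 0.109), and neither passed. Without control LPS replicate 3, the control change was 0.51 and passed (adjusted p = 0.0491), and after quantile normalization the mutant change was 0.42 and passed (adjusted p = 0.0219).

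Rel, which encodes c-Rel and is known mainly from lymphoid and myeloid cells, was near the median of all probe sets. It was the single member with a negative change at 3 h in both genotypes. Control values were 4.86, 5.04 and 5.21 after PBS and 5.09, 4.70 and 4.69 after LPS. Mutant values were 5.23, 5.30 and 4.87 after PBS and 4.93, 4.68 and 4.68 after LPS. The groups overlapped in both genotypes. The differences of -0.21 (95% interval -0.51 to 0.10, limma adjusted p = 0.678) and -0.37 (-0.68 to -0.07, limma adjusted p = 0.0752) did not pass. Without mutant LPS replicate 1 or PBS replicate 3 the mutant difference did pass, at -0.45 and -0.50 (adjusted p = 0.0434 and 0.0465).

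Among the cytoplasmic inhibitors, Nfkbia, which encodes IkB-alpha and is itself a classic NF-kB target, rose in mutants. In controls its representing probe set measured 11.31, 11.27 and 10.98 after PBS and 12.30, 12.12 and 11.39 at 3 h after LPS. In mutants it measured 10.85, 10.88 and 10.86 after PBS and 12.66, 12.34 and 12.89 after LPS. The 3 mutant LPS arrays were the highest of all 18, and control LPS replicate 3 exceeded the top PBS array by less than the PBS arrays differed among themselves. Nfkbia rose by 1.77 in mutants (SE 0.18, 3.41-fold, limma adjusted p = 9.46e-05), and this call held in all 17 fits run, 6 of which left out an array. The control difference was 0.75 (SE 0.18, 95% interval 0.36 to 1.14, limma adjusted p = 0.0914) and did not pass. It passed in 4 of the 17 fits: without control LPS replicate 3 (1.03, adjusted p = 0.00104), without the second-day mutant arrays (0.75, adjusted p = 0.0273), with hybridization day as a block (0.75, adjusted p = 0.0402) and with the 5 probe sets averaged (1.02, adjusted p = 0.0299). Its lowest values were 0.36 with array weights and 0.57 without control LPS replicate 1 (adjusted p = 0.129 and 0.239). All 5 Nfkbia probe sets rose in mutants, by 1.32 to 2.05. In controls they differed by 0.75 to 1.28, and 1 of the 5, of the _s_at type, rose (0.95, limma adjusted p = 0.0349).

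Nfkbib encodes IkB-beta, an inhibitor that is less responsive to NF-kB itself. Its representing probe set measured 8.39, 8.27 and 8.47 after PBS and 8.61, 8.74 and 8.52 at 3 h after LPS in controls. In mutants the values were 8.38, 8.31 and 8.21, then 8.28, 8.65 and 8.59. Control groups did not overlap and mutant groups did. The differences were 0.25 (95% interval 0.01 to 0.48, limma adjusted p = 0.436) and 0.21 (-0.02 to 0.44, limma adjusted p = 0.179). Without mutant LPS replicate 1, the mutant difference was 0.32 and passed (adjusted p = 0.0361), as it did after quantile normalization (0.39, adjusted p = 0.0212). The second probe set lay below the median of all probe sets and did not pass.

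Nfkbie, which encodes IkB-epsilon, was below the median of all probe sets after PBS on both of its probe sets and had the widest spread at 3 h. Its representing probe set measured 4.03, 3.59 and 3.90 after PBS and 6.55, 5.11 and 3.45 after LPS in controls. In mutants it measured 4.11, 3.89 and 3.83 after PBS and 5.74, 4.34 and 6.78 after LPS. Control LPS replicate 3 was the lowest of all 18 arrays while replicate 1 was the second highest. The differences, 1.19 in controls (95% interval -0.04 to 2.43, limma adjusted p = 0.496) and 1.68 in mutants (0.44 to 2.92, limma adjusted p = 0.0516), did not pass. The control difference passed in none of 16 fits and ran from 0.11 with array weights to 1.99 without control LPS replicate 3, and was 0.44 without LPS replicate 1. Without mutant LPS replicate 2 the mutant difference was 2.32 (adjusted p = 0.00422), from the second-day arrays alone. The other probe set rose by 0.86 in mutants (limma adjusted p = 0.0313), where its LPS values were 4.83, 4.45 and 5.67. Without the second-day arrays the mutant differences of the 2 probe sets were 0.40 and 0.33.

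Of the nuclear IkB genes, Bcl3 encodes a protein that binds dimers without an activation domain and can turn them into activators. It had the largest change of the family in mutants. Control values were 5.88, 5.83 and 5.53 after PBS and 8.05, 7.67 and 6.57 at 3 h after LPS. Mutant values were 5.79, 5.77 and 5.76 after PBS and 7.92, 7.90 and 8.42 after LPS. Every LPS array was far above every PBS array, with control LPS replicate 3 the nearest. Bcl3 rose by 1.68 in controls (SE 0.26, 3.20-fold, limma adjusted p = 0.00814) and by 2.31 in mutants (SE 0.26, 4.95-fold, limma adjusted p = 0.000148). The mutant call held in all 17 fits. The control call was lost without PBS replicate 2 or 3 (1.72 and 1.57, adjusted p = 0.0502 and 0.0643) and in a fit of the compared arrays alone (adjusted p = 0.197).

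Nfkbiz encodes IkB-zeta, a nuclear cofactor known from macrophages to be needed for secondary response genes. Control values on its representing probe set were 6.79, 5.69 and 6.0 after PBS and 7.52, 6.47 and 6.02 at 3 h after LPS. Mutant values were 5.81, 5.83 and 6.02 after PBS and 7.70, 7.25 and 6.81 after LPS. The control groups overlapped, with PBS replicate 1 above 2 of the 3 LPS arrays, and the mutant groups did not. Nfkbiz rose by 1.37 in mutants (SE 0.32, 2.58-fold, limma adjusted p = 0.00930), where its other probe sets also rose, by 0.71 and 0.91. In controls the difference was 0.51 (95% interval -0.16 to 1.18, limma adjusted p = 0.622). It passed in none of 17 fits and ran from 0.006 with array weights to 0.84 without control LPS replicate 3. It was 0.09 without LPS replicate 1, 0.28 without PBS replicate 2 and 0.83 without PBS replicate 1.

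**Figure D2:**
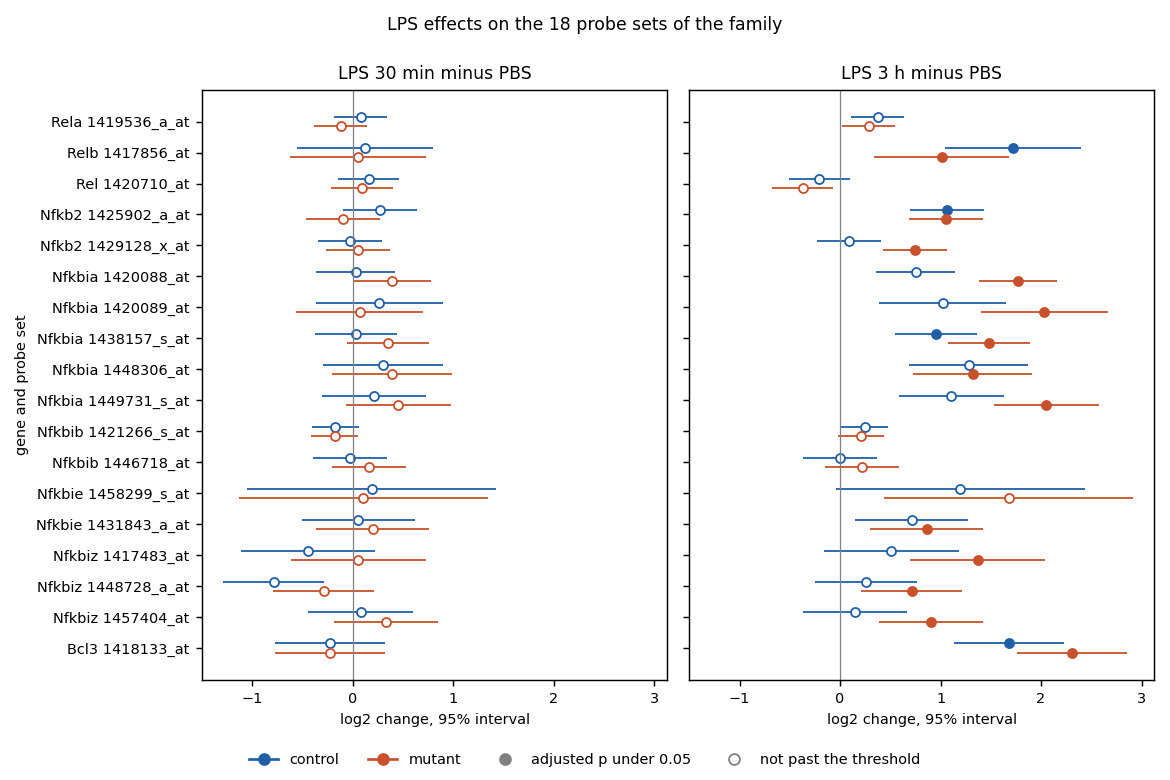
Log2 change against PBS of the same genotype for each of the 18 probe sets, at 30 min (left) and at 3 h (right), with 95% intervals from the fit to 18 arrays. Filled symbols have a limma adjusted p under 0.05. At 3 h, 4 control and 13 mutant probe sets are filled, all above 0, and at 30 min none is.

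The 3 control LPS 3 h arrays differed from each other in the same way for most of the family. Replicate 3 was the lowest of the 3 for 9 of 9 genes and 17 of 18 probe sets, and replicate 1 was the highest for 8 of 9 genes. The same array was lowest for 103 of the 116 genes that rose in controls. Bcl3, for example, was 2.30, 1.92 and 0.82 above the PBS mean on replicates 1, 2 and 3, and Nfkbia 1.12, 0.94 and 0.20. Among the mutant arrays replicate 2 was the lowest for 5 of 9 genes and replicate 3 the highest for 4. Of the 1802 genes that rose in mutants, replicate 2 was lowest for 1041 and replicate 3 highest for 1153. Without control LPS replicate 3, 5 of the 9 genes rose in controls, and without PBS replicate 3 none did. Of all probe sets 611 and 44 then passed, against 225 with all arrays.

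**Figure D3:**
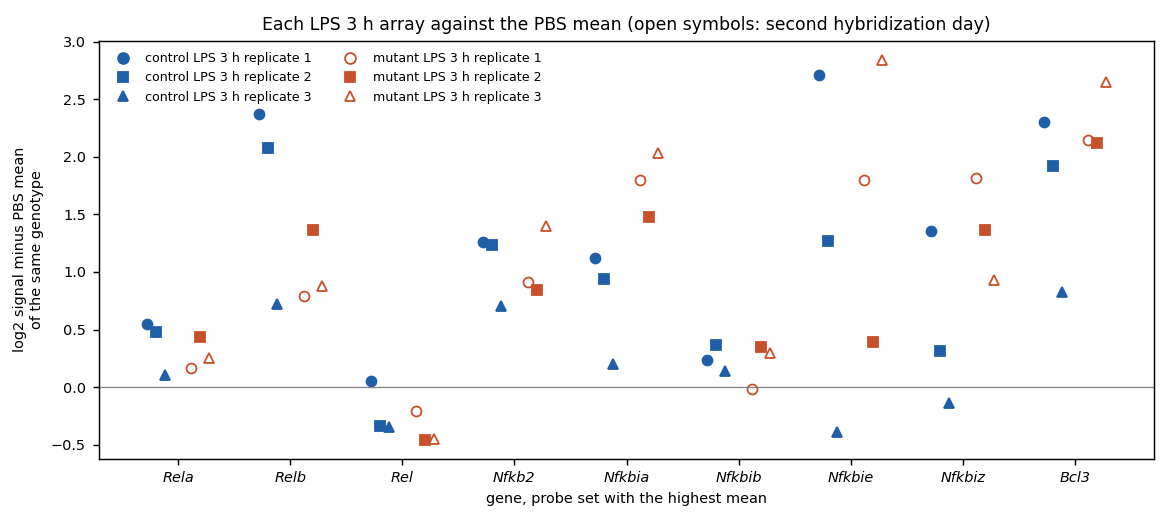
Each LPS 3 h array minus the PBS mean of its genotype, in log2 units, for the representing probe set of each gene. Symbols mark the replicate, colours the genotype, and open symbols the second hybridization day. The control triangles (replicate 3) are the lowest control symbols for every gene, and the filled mutant squares (replicate 2, first day) lie at 2.12 for Bcl3 and 1.48 for Nfkbia.

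Mutant LPS 3 h replicate 2 was the only array of its group hybridized on the same day as the PBS arrays. It also had the highest means of its group for lung epithelium markers (6.36) and for 2 adipocyte markers (6.74). With that array alone, and its spread assumed to be that of the other groups, Bcl3 was 2.12 above PBS (limma adjusted p = 0.00208), Nfkbia 1.48 (adjusted p = 0.00180) and Nfkb2 0.84 (adjusted p = 0.0220), and these passed. Relb and Nfkbiz were at 1.36 each and did not pass (adjusted p = 0.0637 and 0.0506), beside 1.01 and 1.37 with all 3 arrays. Across first-day arrays alone, which leaves fewer degrees of freedom, Bcl3 and Nfkb2 passed in controls (adjusted p = 0.0478 and 0.0451) and Bcl3 and Nfkbia in mutants (adjusted p = 0.0241 and 0.0227).

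At 30 min after LPS no member passed in controls or in mutants, where 0.0934% and 0.0275% of all genes did, and none of the 9 had an unadjusted p under 0.05 by limma. The median change of the 9 genes was 0.08 in controls and 0.05 in mutants. By representing probe sets Nfkbia in mutants came closest, with values of 11.29, 11.31 and 11.16 against 10.85, 10.88 and 10.86 after PBS. Those groups did not overlap, and the change was 0.39 (95% interval -0.002 to 0.78, limma adjusted p = 0.746). It passed in 2 other fits, with array weights (0.40, adjusted p = 0.0467) and with only the compared arrays (0.39, adjusted p = 0.0393). Lower than after PBS, also without overlap, were Bcl3 in mutants (-0.23) and Nfkbib in both genotypes (-0.18 each), and neither passed. In controls Nfkbia changed by 0.03 (-0.36 to 0.42) on its representing probe set. The other Nfkbia probe sets differed by 0.26, 0.03, 0.30 and 0.21 in controls. In mutants they differed, in the same order, by 0.07, 0.35, 0.39 and 0.45, and none passed in either genotype. Nearer the threshold was a probe set of Nfkbiz that does not represent its gene, at -0.79 in controls (limma adjusted p = 0.287). LPS, time since injection and hybridization day cannot be told apart in this comparison. PBS hearts were taken at 3 h and hybridized on the first day, and every 30 min array was hybridized on the third day.

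Between 30 min and 3 h after LPS, Relb (1.60), Bcl3 (1.91) and Nfkb2 (0.79) rose in controls (limma adjusted p = 0.0213, 0.00144 and 0.0330), where 1.06% of all genes rose, and 0 fell, where 0.748% did. In mutants 7 genes rose, where 15.0% of all genes rose, and 1 fell, where 18.5% did. The 7 were Bcl3 (2.53), Nfkbia (1.38), Nfkbiz (1.31), Nfkb2 (1.15), Relb (0.96), Rela (0.41) and Nfkbib (0.39). Rel fell by 0.46 (SE 0.14, limma adjusted p = 0.0279), from 5.04, 5.32 and 5.32 at 30 min to 4.93, 4.68 and 4.68 at 3 h, with no overlap. Day and time cannot be told apart here either. Without the second-day arrays 6 genes passed in mutants in place of 8. The Rel call was lost without the second-day arrays (-0.54, adjusted p = 0.0639), and without LPS 30 min replicate 2 or 3 or LPS 3 h replicate 2 or 3 (adjusted p = 0.0883, 0.0946, 0.0512 and 0.107). In mutants the Relb call was lost without the second-day arrays (1.32, adjusted p = 0.0503) and without any one of 5 arrays (adjusted p from 0.0591 to 0.100), that of Rela without LPS 3 h replicate 2 or 3 or LPS 30 min replicate 2 or 3 (0.0621 to 0.110), and that of Nfkbib without replicate 3 of either group (0.0792 and 0.0854). In controls Relb and Nfkb2 each lost their calls without LPS 3 h replicate 1 or 2 or any LPS 30 min array (0.0643 to 0.107 and 0.0866 to 0.136). Bcl3 kept its call without any single array, and without control LPS 3 h replicate 3 Nfkbia and Nfkbiz passed too (adjusted p = 0.00106 and 0.0440).

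Between genotypes, no member passed after PBS or at 30 min, where 0.0165% of all genes did at each. After PBS the arrays of the genotypes did not overlap for Nfkbia, lower in mutants, and for Rela and Nfkb2, higher in mutants. The same held at 30 min for Nfkbiz, higher in mutants. At 3 h after LPS 1 of the 9 genes was higher in mutants and 0 were lower, where 9.75% and 13.2% of all genes were. That gene was Nfkbia, at 12.6 ± 0.28 in mutants and 11.9 ± 0.48 in controls (SD, n = 3 each), a difference of 0.69 (SE 0.18, limma adjusted p = 0.0197) with no overlap between the groups. Its probe sets disagreed, since 3 of 5 were higher (0.69 to 1.12), where 7.97% of all probe sets were, 1 differed by 0.33 and 1 by -0.05. Nfkb2 was higher on its _x_at probe set (0.56, limma adjusted p = 0.0203) and not on the representing one (0.34, limma adjusted p = 0.181). Without the second-day arrays the Nfkbia difference was 0.40 (SE 0.24, limma adjusted p = 0.394) and no member passed. The call was also lost without control LPS replicate 3 (0.42, adjusted p = 0.0617) or mutant LPS replicate 3 (0.56, adjusted p = 0.100). With the probe sets of a gene averaged Nfkbia did not pass either (0.57, limma adjusted p = 0.0559), while Nfkb2 did (0.45, limma adjusted p = 0.0303). Without control LPS replicate 1, Bcl3 (0.96, adjusted p = 0.0391) and Nfkbiz (1.01, adjusted p = 0.0463) were higher in mutants, and without control LPS replicate 3 Relb was lower (-0.87, adjusted p = 0.0311).

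A direct test asked whether the 3 h response differed by genotype, and no member passed, where 0.159% of all genes did. The effect was 1.02 larger in mutants for Nfkbia (SE 0.26, 95% interval 0.46 to 1.57, limma adjusted p = 0.0941), and 0.86 larger for Nfkbiz (-0.09 to 1.80, limma adjusted p = 0.268). The Nfkbia difference passed without mutant LPS replicate 2 (1.16, adjusted p = 0.00342), a fit in which the group holds second-day arrays only and 10621 probe sets passed, against 47. It also passed with array weights (1.48, limma adjusted p = 0.00169), as did the difference of Bcl3 (1.30, limma adjusted p = 0.0322). Those weights were 2.352 for control LPS replicate 3, against 0.302 and 0.361 for replicates 1 and 2. For the mutant LPS replicates 1, 2 and 3 they were 0.253, 0.115 and 0.294. Without the second-day arrays, which leaves 1 mutant LPS array, the Nfkbia difference was 0.72. For Nfkb2 the effect differed by -0.01 (-0.54 to 0.51) on the representing probe set and by 0.66 (0.21 to 1.11, limma adjusted p = 0.123) on the other, and for Relb by -0.71 (-1.67 to 0.24). After PBS the mutant minus control difference of Nfkbia was -0.32, which did not pass and enters this value. Of the 9 genes, 1 had an unadjusted p under 0.05 by limma, where 26.5% of all genes did. At 30 min none of the 9 differences passed (0.00% of all genes).

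By group mean the LPS 3 h groups were the top pair for Rela, Relb, Nfkb2, Nfkbia, Nfkbib, Nfkbie, Nfkbiz and Bcl3, and the bottom pair for Rel. For Relb, Nfkb2, Nfkbia and Bcl3 the lower of both LPS 3 h groups stood clear of the group below it, while for Rela, Nfkbib, Nfkbie and Nfkbiz those neighbours overlapped. The share of all genes with such orders was not counted. The LPS 3 h groups of the genotypes overlapped each other for 8 of the 9 genes, the exception being Nfkbia, which was higher in mutants. Of all genes 10.1% were higher and 10.2% lower in mutants without overlap.

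Other genes of the pathway were read from lists chosen with earlier results of these data known. Their counts at 3 h stand beside 0.638% of all genes that rose and 0.137% that fell in controls, and 9.90% and 16.1% in mutants. Of 10 receptor genes, 0 passed in controls 3 h after LPS, where Tnfrsf1a was at 0.43 and Tnfrsf12a, the receptor of the cytokine TWEAK, at -0.77 (limma adjusted p = 0.0573 and 0.0671). In mutants 5 rose and 0 fell, including the genes for the receptors of tumour necrosis factor, Tnfrsf1a (0.46), of lymphotoxin, Ltbr (0.58), and of interleukin-1, Il1r1 (0.58), and the LPS co-receptor Cd14 (0.95). Of 15 measured adaptor genes 2 rose in controls, the ubiquitin ligase Birc3 (1.54) and the brake of Toll-like receptor signalling Irak3 (1.01), and 0 fell. In mutants Birc3 rose (1.41) and the receptor-associated kinase gene Irak1 and the adaptor gene Bcl10 fell, by 0.67 and 0.58. Of 10 kinase genes none passed in controls, where Ikbkb, a catalytic subunit of the IkB kinase, was 0.34 above PBS and the kinase gene Map3k8 0.71 above (limma adjusted p = 0.186 and 0.201). In mutants the IkB kinase activator Map3k7 rose (0.41) and its partner Tab3 fell by 0.64. The list medians were 0.17, -0.002 and 0.03 in controls and 0.52, 0.18 and 0.16 in mutants for receptors, adaptors and kinases.

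Of 15 other inhibitors, none passed in controls, where Tnip1 (1.05, limma adjusted p = 0.0711) and the deubiquitinase gene Tnfaip3 (1.86, limma adjusted p = 0.0781) had the smallest p. In mutants 3 rose and 3 fell, among them Tnip1 (0.98) and the ribonuclease gene Zc3h12a (0.71) up, and the ubiquitin ligase genes Itch and Rnf11 down, at -0.78 each. Of 30 target genes 3 rose and 0 fell in controls, the adhesion molecules Selp (3.89), Icam1 (3.32) and Vcam1 (2.72). In mutants 12 targets rose and 2 fell, with Icam1 (3.38), Vcam1 (2.51), the monocyte chemokine Ccl2 (2.51) and the neutrophil chemokine Cxcl1 (1.06) among those that rose. The target medians were 0.24 and 0.54.

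The lists were refitted without the second-day arrays, an alternative chosen after seeing the data. In mutants, where 5.29% of all genes then rose and 6.06% fell, 3 receptor genes rose and 2 fell, 2 adaptor genes rose and 2 fell, and no kinase or other inhibitor gene passed. Among receptors Cd14, Il1r1 and Tnfrsf1a passed and Ltbr did not, and among adaptors Birc3 passed while Irak1 and Bcl10 did not. Of the targets 9 rose, Icam1, Vcam1, Ccl2 and Cxcl1 among them, and 2 fell. In controls, whose arrays were the same, 4 receptor, 5 adaptor, 2 other inhibitor and 9 target genes rose, 1 receptor gene fell, and 2.35% and 1.61% of all genes did.

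**Figure D4:**
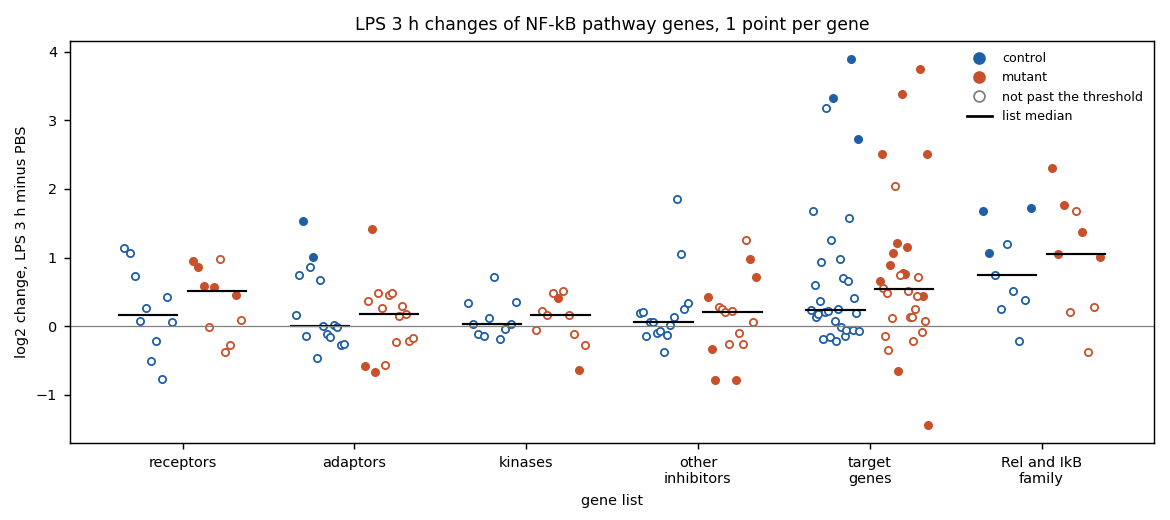
Log2 change at 3 h after LPS against PBS for the genes of each pathway list and of the Rel and IkB family, 1 point per gene and genotype (blue, control; red, mutant). Filled points have a limma adjusted p under 0.05 and bars are list medians, which for the family are 0.75 in controls and 1.05 in mutants.

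For each member, the 3 genes with the most similar pattern over the 16 arrays outside the second day were taken, by Pearson's r of log2 values among 11802 genes at or above the median signal. Bcl3 was closest to Irf1 (0.99), Il4ra (0.98) and Icam1 (0.98). Nfkbia was closest to Cebpb, Ccl7 and Pfkfb3 (each 0.95), Nfkbiz to Socs3 (0.96), Lcn2 (0.90) and Cd14 (0.89), and Relb to Etv6 (0.98), Litaf (0.97) and Tnip1 (0.96). Nfkb2 was closest to Irf1 (0.94), Tap1 and Casp4 (each 0.93). Rel, at 0.86 for its first gene, Ppp2r1b, had the lowest leading value, and the first genes for Nfkbie, Nfkbib and Rela were Fpr2 (0.96), Cuedc2 (0.94) and Ppp2r2d (0.92). These describe arrays that share groups and hybridization days, and over all 18 arrays r was 0.83 for Irf1 and 0.99 for Il4ra with Bcl3, and 0.68 for Cebpb with Nfkbia.

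Markers of other cell types differed along with the LPS 3 h groups. The mean of 7 of 8 neutrophil markers was 4.61 to 5.25 after PBS and 5.52 to 6.07 at 3 h in controls, and 4.94 to 5.62 and 5.81 to 6.65 in mutants, with 0 and 2 of the 7 past the threshold. Control LPS replicate 3, the lowest array for the family, had the highest neutrophil mean of its group (6.07). The mean of 8 monocyte and macrophage markers was 7.10 to 7.34 and 7.42 to 7.78 in controls, and 7.17 to 7.35 and 7.39 to 7.44 in mutants. The mean of 7 endothelial markers was 9.04 to 9.11 after PBS in mutants and 8.09 and 7.83 on the second-day arrays at 3 h, against 8.72 on replicate 2, and 6 of the 7 fell in mutants. The mean of 7 cardiomyocyte markers was 13.24 to 13.33 after PBS and 12.87 to 13.14 at 3 h in mutants, where 3 of the 7 fell, as did 3 of 6 fibroblast markers. Median changes of endothelial, cardiomyocyte and fibroblast markers in mutants were -1.03, -0.21 and -0.46 with all arrays. Without the second-day arrays, which leaves 1 mutant LPS 3 h array, they were -0.50, -0.12 and -0.21. The mean of 4 lung epithelium markers was 6.36 and 6.12 on mutant LPS 3 h replicates 2 and 3, and 4.46 to 4.89 on the other arrays. The part of these cell types in the changes of the family was not tested.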

How the data were processed

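Heart RNA was hybridized to 18 Affymetrix mouse expression arrays of 1 colour. The values are log2 signals that the authors deposited, made with RMA, per the submitters' processing notes. The sources used here give neither its version nor its settings. RMA compresses low signals, so changes of dim probe sets are understated, and the number of arrays limits precision. Array medians ran from 4.71 to 4.97. Other fields used, such as the hybridization day, come from each array's deposited experiment file and hold no measurement.

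Of 45101 probe sets 64 controls were left out. The annotation gave 1 symbol for 34945, several for 932 and none for 9160. A model of 6 group means was fitted with limma 3.58.1 in R 4.3.3 (12 residual and 3.83 prior degrees of freedom), with Benjamini-Hochberg adjustment over 45037 probe sets and a threshold of 0.05. The named genes were every member, up to 4 genes past the threshold per list or the 2 with the smallest p where none passed, and 3 genes per member by likeness. Members, lists and tests were chosen with earlier results of these data known. Motifs were searched in RefSeq windows on GRCm38.p6.

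Alternatives were other normalizations, a filter on low signals, hybridization day as a block, first-day or third-day arrays alone, leaving out the second-day arrays, array weights, gene means, a replicate block and leaving out each array. Replicate numbers did not pair the samples: the deviations of same-numbered samples correlated at 0.03 on average (-0.32 to 0.36 over 45 pairs), against -0.02 for different numbers.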

Additional observations from a re-analysis of the deposited data

How the results depend on the processing

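Counts below are of the 9 genes past the adjusted threshold by limma. At 30 min against PBS in mutants 1 passed with only the compared arrays fitted and 1 with array weights, against 0, and that gene was Nfkbia. At 3 h against PBS in controls 0 passed with only the compared arrays, against 3. In mutants, against 5, 7 passed after quantile normalization, with Rela and Nfkbib gained, 6 with the probe sets of a gene averaged, 4 with each array centred on its median, 2 with day as a block, 2 with first-day arrays, 3 without the second-day arrays and 2 with only the compared arrays. From 30 min to 3 h in controls, against 3, 5 passed without the second-day arrays, 0 with only the compared arrays and 5 with array weights. In mutants, against 8, 6 passed without the second-day arrays, 5 with each array centred on its median, 1 with only the compared arrays and 5 with array weights. Between genotypes at 3 h, against 1, 2 passed after quantile normalization, 3 with array weights, and 0 with day as a block, first-day arrays, no second-day arrays or only the compared arrays. Averaging the probe sets of a gene left the count between genotypes at 1, with Nfkb2 in place of Nfkbia. For the difference of LPS effects at 3 h 2 passed with array weights, against 0, namely Nfkbia and Bcl3. Leaving out 1 array at a time gave 0 to 5 at 3 h in controls, 4 to 7 in mutants, 1 to 5 and 4 to 8 from 30 min to 3 h, 0 to 3 between genotypes at 3 h and 0 to 1 for the difference at 3 h, and 0 in the other comparisons. With array weights the control changes of Relb and Bcl3 were 1.04 and 1.07. The weights favoured control LPS 3 h replicate 3, the lowest array for the family, at 2.352 against 0.302 and 0.361 for replicates 1 and 2. A fit of only the compared arrays has fewer degrees of freedom and takes its spread from those arrays alone. The other causes were not tested. No called change turned its sign.

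The replicate block changed none of these counts, which stayed at 3 and 5 at 3 h against PBS. Day as a block or within a day could not be fitted for comparisons of 30 min with PBS or with 3 h. The filter on low signals removed Nfkbie. Probe sets called over the whole table ran from 6 to 2469 at 3 h in controls, against 225, from 66 to 14773 in mutants, against 9522, from 1 to 14775 between genotypes at 3 h, against 8309, and from 1 to 10621 for the difference at 3 h, against 47. From 30 min to 3 h they ran from 135 to 6967, against 653, in controls, and from 54 to 16272, against 12402, in mutants. At 30 min against PBS they ran from 3 to 4221, against 64, in controls, and from 0 to 2627, against 22, in mutants. Between genotypes they ran from 1 to 736, against 4, after PBS, and from 1 to 1156, against 4, at 30 min. Of the single gene results, 591 kept direction and side of the threshold when 1 array was left out, 41 lost and 13 gained a call, and 57 without a call changed sign. Under the other settings these were 783, 45, 22 and 39. Results that stayed without a call are among the 591 and 783, and only a called gene can lose a call. With all arrays 3 and 5 genes were called at 3 h against PBS in controls and mutants. From 30 min to 3 h they were 3 and 8, and between genotypes at 3 h 1. When 1 array was left out, these comparisons lost 10 and 4, 10 and 15, and 2 calls. Changes of probe sets near the lowest signal are limited by background.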

Other observations

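Probe sets of 1 gene did not always move together. Of the 3 Nfkbiz probe sets, the one of the _a_at type was lower at 30 min than after PBS in controls, at 4.89, 5.01 and 4.97 against 6.18, 5.75 and 5.30. Those groups did not overlap, and the difference was -0.79 (SE 0.24, limma adjusted p = 0.287). The other Nfkbiz probe sets differed by -0.45 and 0.08 there. In mutants the difference was -0.29. It rose by 1.05 from 30 min to 3 h in controls (limma adjusted p = 0.0389), in a comparison that hybridization day cannot be told apart from.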
